A study of Rattus norvegicus with 10 samples.

Results

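The cluster of miR-132 and miR-212 consists of 4 mature microRNAs (miRNAs), miR-132-3p, miR-132-5p, miR-212-3p and miR-212-5p, which are the 3p and 5p arms of 2 neighbouring hairpins. They were taken by name from a table of 765 rat miRNAs, and all 4 were present. Small RNA was sequenced from hippocampi of 10-week-old Wistar rats, in 5 libraries of rats with both common carotid arteries occluded (2-VO, replicates 3, 5, 6, 7 and 8) and 5 libraries of sham-operated rats (replicates 1 to 5). The occlusion lowers the blood supply of the brain and serves as a model of chronic cerebral hypoperfusion. How long after the operation the tissue was taken is not stated in the labels. They also do not tie each library to an animal of its own, so a p-value reflects only how far these libraries vary, which may be technical variation.

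A miRNA is cut from a hairpin precursor and guides the Argonaute complex to messenger RNAs that pair with its seed, the bases near its 5′ end. Both arms of a hairpin can be loaded. The miR-132 and miR-212 hairpins are made from a shared noncoding transcript, which the transcription factor CREB induces in neurons after BDNF or synaptic activity. miR-132-3p promotes dendrite growth and spine formation in hippocampal neurons, in part by repressing the GTPase-activating protein p250GAP. miR-212-3p has the same seed and was studied in the rat striatum for its part in drug intake. CREB itself was not measured here, so the naming of the cluster after it could not be checked with these data.

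The 4 mature sequences are shown from RefSeq (build GRCr8, chromosome 10, plus strand, 4 of 4 members matched), because the 3p arms are a seed family and the 5p arms are not. Each runs 5′ to 3′ with its seed, bases 2 to 8, in capitals.
miR-132-3p: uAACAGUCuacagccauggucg
miR-212-3p: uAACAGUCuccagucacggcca
miR-132-5p: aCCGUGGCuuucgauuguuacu
miR-212-5p: aCCUUGGCucuagacugcuuacug
The 3p arms were identical over their first 9 bases and at 17 of 22 positions. No other rat miRNA of the RefSeq table had their seed, AACAGUC. The 5p arms were identical at 14 of the 22 positions compared from the 5′ end, and at 6 of the 7 seed bases, so they have different seeds, CCGUGGC and CCUUGGC. Each 5p seed belonged to a single miRNA of that table.

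The miR-132 hairpin is shown with both mature arms in capitals, since the use of its arms is compared with that of miR-212 below.
Mir132: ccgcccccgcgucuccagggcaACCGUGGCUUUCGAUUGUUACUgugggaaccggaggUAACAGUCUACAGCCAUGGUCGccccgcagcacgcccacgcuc
The 5p arm takes bases 23 to 44 of the 101 bases and the 3p arm bases 59 to 80, with 14 bases between them. In the GRCr8 annotation Mir212 and Mir132 lie next to each other with 0 genes between them, and Hic1 is the nearest gene before Mir212. The submitters' processing notes name another build, rn6, so coordinates are not given.

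The deposited values are RPM, read counts divided by a total that differs per library, from 13095384 to 13839174 reads in 2-VO and from 13032805 to 13850400 reads in sham libraries. The listed miRNAs made up 60.3% (2-VO replicate 3) to 78.0% (2-VO replicate 6) of that total, so RPM values also depend on the reads outside the table. All 5 neuron marker miRNAs (led by miR-9a-5p, miR-128-3p and miR-129-5p) were above 0 in each library. Their summed level was 165175 to 212903 RPM in 2-VO and 173735 to 209985 RPM in sham libraries. Mean log2(RPM + 1) was 17.0 for miR-9a-5p and 11.1 for miR-124-3p in both groups. The sum therefore mostly follows miR-9a-5p and says little about the lower markers. Sums for oligodendrocyte markers were 1615 to 2923 RPM in 2-VO and 1865 to 2762 RPM in sham libraries, and for vessel markers 15973 to 22630 RPM in 2-VO and 18699 to 21179 RPM in sham libraries. Those for choroid plexus markers were 387 to 562 RPM in 2-VO and 548 to 949 RPM in sham libraries, and for red blood cell markers 84.1 to 215 RPM in 2-VO and 129.8 to 155 RPM in sham libraries. Astrocyte markers summed to 13204 to 16917 RPM in 2-VO and 13546 to 18507 RPM in sham libraries, and microglia and leukocyte markers, 2 of 3 above 0 in each library, to 27.0 to 49.5 RPM in 2-VO and 26.2 to 36.8 RPM in sham. Epithelial and sensory cell markers, 2 of 4 above 0 in each library, reached 75.02 RPM in 2-VO replicate 3 and at most 21.4 RPM in sham libraries. The markers of other brain regions, miR-10a-5p and miR-10b-5p, summed to 12.0 to 33.9 RPM in 2-VO and 4.80 to 27.9 RPM in sham libraries. Several of these sums were also led by few markers. In 2-VO libraries the mean log2(RPM + 1) was 10.9 for miR-219a-2-3p against 6.96 for miR-338-3p among oligodendrocyte markers. Among red blood cell markers it was 6.86 for miR-486 against 4.34 for miR-451-5p. For choroid plexus it was 8.74 for miR-204-5p against 4.17 for miR-448-3p. miR-143-3p (13.6) and miR-126a-3p (12.7) led the vessel markers, ahead of miR-126a-5p (8.22). In tissue such as this, fewer cells of a type and less RNA per cell cannot be told apart.

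The cluster held 1382 ± 76.7 RPM in 2-VO and 1348 ± 84.1 RPM in sham libraries (SD, n = 5 each), which was 0.170% to 0.234% of the listed miRNA reads over all 10 libraries. miR-132-3p supplied 45.3% ± 1.23 of the cluster's reads in 2-VO and 45.0% ± 1.84 in sham libraries. miR-212-5p followed with 25.2% ± 2.09 in 2-VO and 26.3% ± 2.10 in sham, then miR-132-5p with 21.6% ± 1.16 in 2-VO and 21.9% ± 0.685 in sham. miR-212-3p gave 7.91% ± 1.39 in 2-VO and 6.75% ± 0.725 in sham libraries. The miR-212 hairpin therefore gave 33.1% ± 2.24 of the cluster in 2-VO and 33.0% ± 1.80 in sham libraries, most of it from its 5p arm. Of the reads with the seed AACAGUC, miR-132-3p took 85.2% ± 2.41 in 2-VO and 87.0% ± 1.35 in sham libraries. A read spans a whole mature miRNA, so these levels need no division by length. Whether the library preparation captures each sequence equally was not tested, so shares of reads may differ from shares of molecules.

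By mean RPM over the 10 libraries, miR-132-3p ranked 87th of 765 (617 RPM), miR-212-5p 117th (350.2 RPM), miR-132-5p 125th (297 RPM) and miR-212-3p 193rd (101 RPM). Of the 765 rows, 528 were above 0 in some library, and some rows repeat others under different names, so these ranks count rows. miR-132-3p lay between miR-3596c (644 RPM) and miR-708-3p (612 RPM), and miR-212-3p between miR-20a-5p (104 RPM) and miR-325-3p (97.5 RPM). miR-212-5p stood between miR-384-3p (362 RPM) and miR-329-5p (345 RPM), and miR-132-5p between miR-325-5p (302 RPM) and miR-126a-5p (294 RPM). Within the cluster, miR-132-3p exceeded miR-212-5p in 10 of 10 libraries, by 1.45 to 2.03 times (exact two-sided paired permutation test, adjusted p = 0.0029 over 3 neighbouring pairs). miR-132-5p exceeded miR-212-3p in 10 of 10, by 2.06 to 3.60 times (exact paired test, adjusted p = 0.0029). The order of miR-212-5p over miR-132-5p was narrower, with a ratio of 0.992 to 1.37 in 2-VO and 1.05 to 1.31 in sham libraries. It held in 9 of 10 libraries, all but 2-VO replicate 5 (exact paired test, adjusted p = 0.0039). The order tested was taken from these same libraries, so these p-values say only that it repeats between them. No row of the table came within 0.05 on the log2 scale of a member in each library, so no member repeats another row.

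miR-132-3p stood at 658, 634, 609, 574 and 656 RPM in 2-VO replicates 3, 5, 6, 7 and 8, against 620.3, 588, 667, 634 and 528 RPM in sham replicates 1 to 5. The 2-VO values lay inside the sham range. miR-132-3p averaged 626 ± 35.2 RPM in 2-VO and 607 ± 52.9 RPM in sham libraries (SD, n = 5 each). Its log2 fold change was 0.047 ± 0.094 (SE; limma on log2(RPM + 1), adjusted p = 0.96 over 474 miRNAs). The 95% interval, -0.15 to 0.25, runs from 0.899 to 1.19 times the sham level. Without sham replicate 5 the estimate was -0.0028, and under the 3 other scalings it was 0.10 to 0.11.

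For miR-132-5p the values were 314, 315, 292, 257 and 317 RPM in the same 2-VO replicates, against 279, 279, 328, 317 and 277 RPM in sham replicates 1 to 5. The groups overlapped, with the lowest value in 2-VO replicate 7 and the highest in sham replicate 3. Mean levels were 299 ± 25.4 RPM in 2-VO and 296 ± 24.6 RPM in sham libraries. The log2 fold change was 0.014 ± 0.0997 (limma adjusted p = 0.98, 95% interval -0.20 to 0.23). Its sign turned when any of 6 libraries was left out, and it was 0.069 to 0.078 under the 3 other scalings.

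miR-212-5p, the arm of its hairpin with more reads, stood at 333, 312, 372, 352 and 367 RPM in 2-VO replicates 3, 5, 6, 7 and 8. It stood at 334, 367, 370.5, 332 and 363 RPM in sham replicates 1 to 5. Again the groups overlapped. Its means were 347 ± 24.6 RPM in 2-VO and 353 ± 18.5 RPM in sham libraries, a log2 fold change of -0.026 ± 0.091 (limma adjusted p = 0.96, 95% interval -0.22 to 0.17). The sign turned positive under the 3 other scalings, which give values of 0.029 to 0.038.

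miR-212-3p was the least abundant member and the one with the widest spread. It stood at 104, 101, 91.0, 99.1 and 154 RPM in 2-VO replicates 3, 5, 6, 7 and 8, against 81.2, 77.4, 105, 107 and 85.7 RPM in sham replicates 1 to 5. A single 2-VO library, replicate 8, lay above the highest sham library, and 4 of 5 2-VO libraries lay above the sham mean. The means were 109.9 ± 25.0 RPM in 2-VO and 91.2 ± 13.8 RPM in sham libraries. The log2 fold change of 0.25 ± 0.15 did not pass (limma adjusted p = 0.77, 95% interval -0.062 to 0.57), and the interval allows 0.958 to 1.48 times the sham level. Without 2-VO replicate 8 it was 0.13 (limma adjusted p = 0.82). Replicate 8 also had the highest summed level of red blood cell markers (215 RPM) and vessel markers (22630 RPM) and the lowest of oligodendrocyte markers (1615 RPM). By mean level these sums are led by miR-486, by miR-143-3p and miR-126a-3p, and by miR-219a-2-3p, so they say little about their other markers. The part of these sums in the level of miR-212-3p was not tested.

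**Figure D1:**
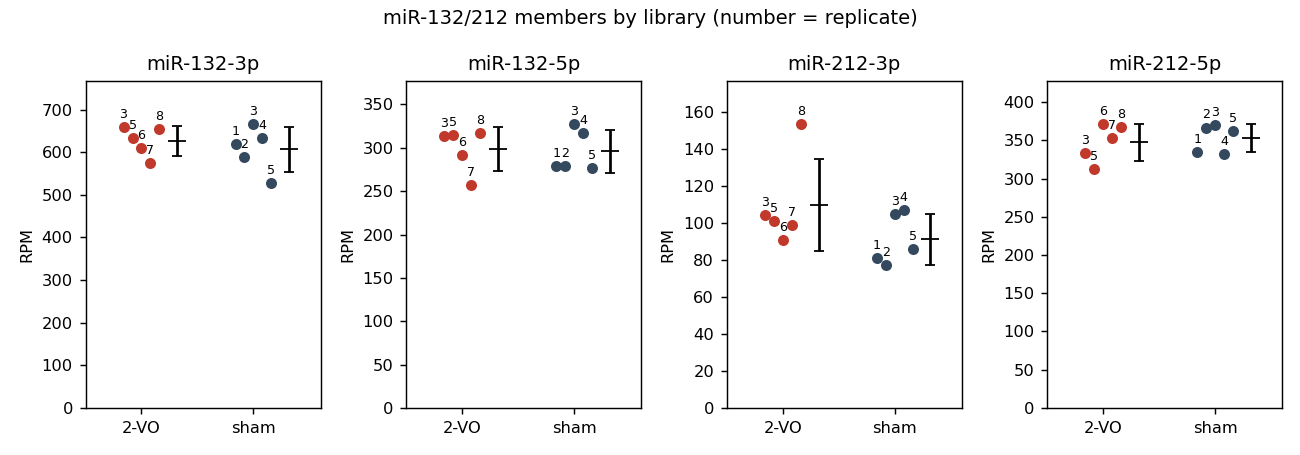
RPM (vertical axis, from 0) of each member in the 5 2-VO and the 5 sham libraries, with the replicate number at each point and the mean ± SD as a bar beside the points. The groups overlap in all 4 panels, and 2-VO replicate 8 stands apart for miR-212-3p at 154 RPM.

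Of the 4 members, 0 passed the adjusted threshold of 0.05 and 0 had an unadjusted p under 0.05. Over all 474 miRNAs tested 0 passed, or 0%, and 24 had an unadjusted p under 0.05, or 5.06% (limma; 0.844% higher and 4.22% lower in 2-VO). Some rows hold the same values under different names, also among those higher, so these are counts of rows. The split of 4 higher and 20 lower was 14 and 21 on the listed-read scale, 18 and 19 with TMM factors, 16 and 21 with median-of-ratios factors, and 10 and 11 without 2-VO replicate 3. With voom on the reads 0 passed and 25 had an unadjusted p under 0.05, and with an exact permutation test per miRNA 0 and 32. The groups overlapped for each of the 4 members, where they did not for 0.633% of all miRNAs. In the test's order by p, miR-212-3p ranked 65th of 474, miR-132-3p 302nd, miR-212-5p 379th and miR-132-5p 425th.

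By their reads, the arms of the hairpins were used in opposite ways. In the miR-132 hairpin the 3p arm led, and the 5p arm made up 32.5% of the reads of both arms on average over the 10 libraries. In the miR-212 hairpin the 5p arm led with 77.8%. The ratio of 5p to 3p was higher for miR-212 in 10 of 10 libraries, by 4.94 to 9.98 times with a median of 7.57 times (exact two-sided paired permutation test, p = 0.0020, the smallest that 10 pairs allow). Over the 132 hairpins with both arms kept, the 5p arm was the higher in 71. The arms lay within 2-fold of each other in 21 hairpins, and the mean log2 ratio of 5p to 3p was -1.05 for miR-132 and 1.81 for miR-212.

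The miR-132 ratio of 5p to 3p was 0.477, 0.497, 0.479, 0.448 and 0.483 in 2-VO replicates 3, 5, 6, 7 and 8, against 0.450, 0.474, 0.491, 0.501 and 0.524 in sham replicates 1 to 5. The groups overlapped, and the log2 difference of 2-VO from sham was -0.033 ± 0.085 (SE; limma over 132 hairpins, adjusted p = 0.89, 95% interval -0.21 to 0.15). It was -0.0067 without sham replicate 5, -0.011 without 2-VO replicate 7 and -0.062 without sham replicate 1. For miR-212 the ratio was 3.19, 3.09, 4.09, 3.56 and 2.38 in 2-VO replicates 3, 5, 6, 7 and 8, against 4.12, 4.74, 3.54, 3.10 and 4.23 in sham replicates 1 to 5. The lowest ratio was that of 2-VO replicate 8, and 2 of 5 2-VO libraries lay below the lowest sham library. The log2 ratio averaged 1.67 ± 0.285 in 2-VO and 1.95 ± 0.236 in sham libraries (SD, n = 5 each). The difference of -0.28 ± 0.15 did not pass (limma adjusted p = 0.48, 95% interval -0.59 to 0.034), and it was -0.17 without 2-VO replicate 8. Of the 132 hairpins 0 passed, or 0%, and 15 had an unadjusted p under 0.05, or 11.4% (limma), with neither miR-132 nor miR-212 among them. The groups did not overlap for 1.52% of hairpins, and did overlap for both of these.

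**Figure D2:**
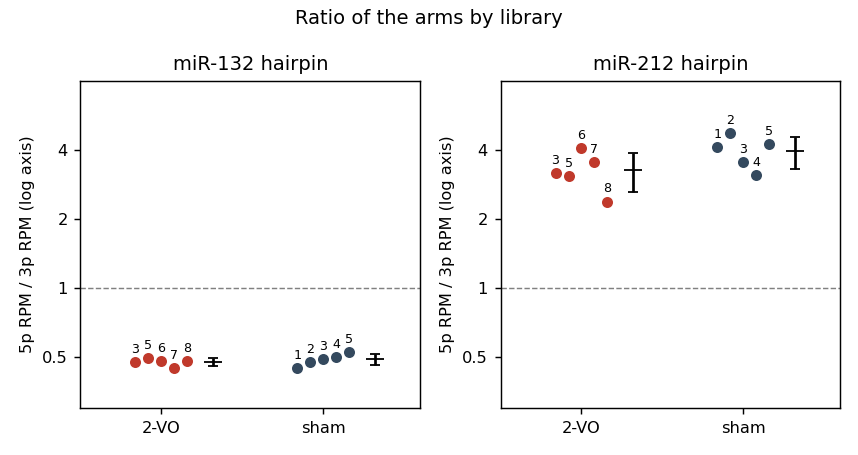
Ratio of 5p to 3p RPM (vertical log axis) of the miR-132 and miR-212 hairpins in each library, with replicate numbers and the mean ± SD. The dashed line marks equal arms: all miR-132 points lie below it (0.448 to 0.524) and all miR-212 points above it (2.38 to 4.74).

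The share of the hairpins was also compared arm by arm. miR-212-3p stood at 0.159, 0.160, 0.149, 0.173 and 0.235 of the miR-132-3p level in 2-VO replicates 3, 5, 6, 7 and 8, against 0.131, 0.132, 0.157, 0.169 and 0.162 in sham replicates 1 to 5. The log2 ratio was 0.21 higher in 2-VO (exact two-sided permutation test, p = 0.18, adjusted p = 0.37 over 2 ratios), with 4 of 5 2-VO libraries above the sham mean. Without 2-VO replicate 8 the difference was 0.097. The ratio of miR-212-5p to miR-132-5p was 1.17 ± 0.154 in 2-VO and 1.20 ± 0.116 in sham libraries (SD, n = 5), a log2 difference of -0.040 (exact permutation test, p = 0.71). It was 0.017 without 2-VO replicate 5 and -0.099 without 2-VO replicate 7. The smallest p this test can give is 0.0079.

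**Figure D3:**
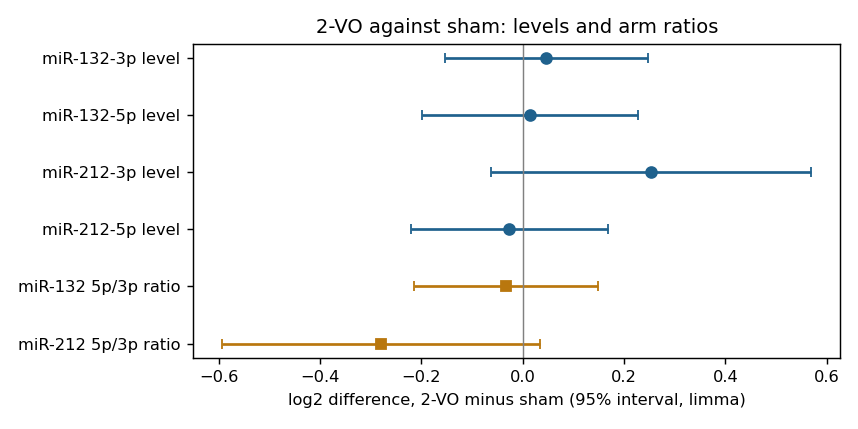
Log2 difference of 2-VO minus sham (horizontal axis) with its 95% interval from limma, for the level of each member (circles) and for the 5p/3p ratio of each hairpin (squares). The 6 intervals hold 0, and the widest are those of miR-212-3p (-0.062 to 0.57) and of the miR-212 ratio (-0.59 to 0.034).

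Covariation was measured as the correlation of log2(RPM + 1) over the 10 libraries for the 6 pairs of members, with p from 100000 permutations. The arms of the miR-132 hairpin varied together (Pearson r = 0.81, permutation p = 0.0040, adjusted p = 0.024 over 6 pairs; Spearman rho = 0.89, permutation p = 0.0012, adjusted p = 0.0072). Without the libraries farthest from the median of miR-132-3p, 2-VO replicate 7 and sham replicate 5, r was 0.87 (exact permutation p = 0.0068). Leaving out 1 library gave r of 0.776 to 0.922, and the adjusted p of Pearson's r was above 0.05 without 2-VO replicate 8 (0.051), sham replicate 2 (0.051) or sham replicate 3 (0.066), all by an exact permutation test. The arms of the miR-212 hairpin showed no such relation (r = 0.018, permutation p = 0.96; rho = -0.091, permutation p = 0.81, adjusted p = 0.96 and 0.97). Without 2-VO replicate 8 and sham replicate 2, r was -0.22 (exact permutation p = 0.58). The difference between the r of the hairpins was not tested.

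miR-212-3p had positive correlations with both arms of miR-132, which passed by rank only. With miR-132-3p r was 0.57 (permutation p = 0.092, adjusted p = 0.18) and rho 0.75 (permutation p = 0.017, adjusted p = 0.034), and r was 0.73 without 2-VO replicate 7 and sham replicate 5 (exact permutation p = 0.038). With miR-132-5p r was 0.59 (permutation p = 0.064, adjusted p = 0.18) and rho 0.78 (permutation p = 0.011, adjusted p = 0.032). It was 0.74 without those 2 libraries (exact permutation p = 0.023), and without 2-VO replicate 7 alone r was 0.755 (exact permutation, adjusted p = 0.027). miR-212-5p had r of -0.25 with miR-132-3p (rho = -0.055, permutation p = 0.50 and 0.89) and -0.21 with miR-132-5p (rho = -0.018, permutation p = 0.56 and 0.97), with adjusted p of 0.68 for both r and 0.97 for both rho. Without 2-VO replicate 7 and sham replicate 5 these r were -0.12 and -0.14, and without sham replicate 3 they were -0.436 and -0.418. On the listed-read scale they turned positive (0.452 and 0.291). With 5 libraries a group, r within a group is not given.

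**Figure D4:**
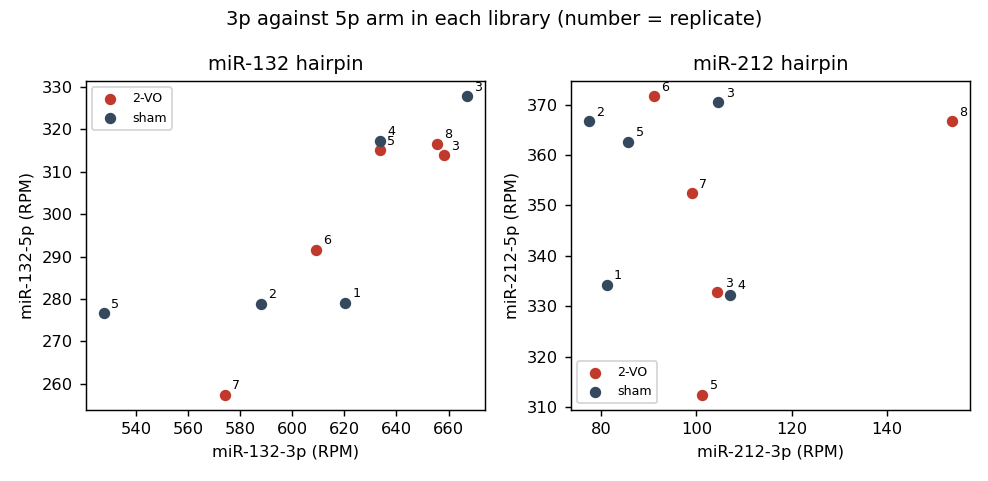
RPM of the 3p arm (horizontal axis) against the 5p arm (vertical axis) in each library, for the miR-132 and the miR-212 hairpin, with replicate numbers. Neither axis starts at 0. The miR-132 points rise together (r = 0.81 on the log2 scale), while the miR-212 points show no trend (r = 0.018), with 2-VO replicate 8 far to the right.

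Taken with group means removed and against all miRNAs of at least 10 RPM, miR-132-5p had the 2nd highest correlation with miR-132-3p of 338 miRNAs (r = 0.82), miR-212-3p ranked 27th (0.53) and miR-212-5p 250th (-0.22). The libraries share a divisor between all miRNAs, and the order changes with it: scaled to the listed miRNA reads, miR-132-5p ranked first of 338 (r = 0.91), miR-212-3p 31st (0.60) and miR-212-5p 83rd (0.42). Of 74 hairpins with both arms at 10 RPM or more, the arms of 15 had a higher r than those of miR-132 and the arms of 69 a higher r than those of miR-212 (0.11), with a median of 0.64. On the listed-read scale these were 2 and 44 hairpins, with r of 0.91 and 0.29 and a median of 0.48.

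Outside the cluster, the miRNAs most like miR-132-3p, again by Pearson's r with group means removed over the 10 libraries, were miR-3556a (r = 0.83), miR-27a-3p (0.81), miR-24-3p (0.79), miR-9b-5p (0.77) and miR-323-3p (0.69). Without 2-VO replicate 7 and sham replicate 5 these r were 0.61, 0.62, 0.54, 0.40 and 0.024. Those most like miR-212-3p were miR-345-5p (0.81), miR-3556a (0.79), miR-150-5p (0.76), miR-497-5p (0.72) and miR-9b-5p (0.71), or 0.59, 0.70, 0.48, 0.56 and 0.58 without 2-VO replicate 8 and sham replicate 2. miR-3556a and miR-9b-5p stood in both lists on the deposited scale, and on the listed-read scale the lists shared 0 miRNAs. There 3 of the 5 for miR-132-3p (not miR-3556a or miR-9b-5p) and 4 of the 5 for miR-212-3p (not miR-9b-5p) were again among the 5 highest. They were chosen as the highest of 338, so these values are a description.

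The spread between libraries of a group also differed between members. The SD of log2(RPM + 1) within groups was 0.091 for miR-212-5p, 0.11 for miR-132-3p, 0.12 for miR-132-5p and 0.26 for miR-212-3p, beside a median of 0.20 over the 339 miRNAs of at least 10 RPM. Of these 339 miRNAs, 1 had a smaller SD than miR-212-5p, 8 a smaller one than miR-132-3p, 16 than miR-132-5p and 258 than miR-212-3p. Scaled to the listed miRNA reads, 39 had a smaller SD than miR-212-5p (0.093), 198 than miR-132-3p (0.17), 181 than miR-132-5p (0.16) and 296 than miR-212-3p (0.27), so the low spread of both miR-132 arms rests on the deposited scale. The members were read 1044 to 9074 times per library. For miR-212-3p, with 1044 to 2128 reads, counting alone gives a coefficient of variation of 2.72%, and the observed one over the 10 libraries was 21.3%. For miR-212-5p these were 1.46% and 5.93%, for miR-132-3p 1.10% and 7.05%, and for miR-132-5p 1.58% and 7.94%.

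**Figure D5:**
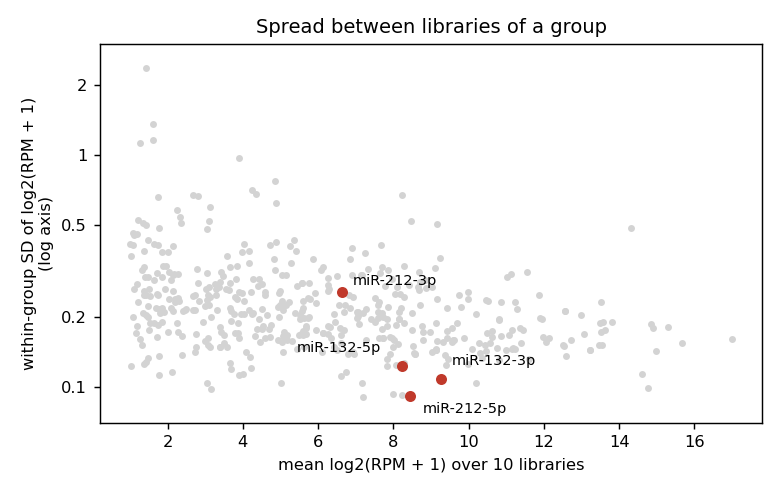
Within-group SD of log2(RPM + 1) (vertical log axis) against the mean log2(RPM + 1) over 10 libraries (horizontal axis) for the 474 miRNAs kept, each a point, with the members in red. miR-212-5p lies at the lower edge (0.091) and miR-212-3p above most miRNAs of at least 10 RPM (0.26).

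Other miRNAs tied to synaptic activity were compared from a list of 12, of which 11 were kept. In 2-VO libraries 1 was higher and 10 lower, with a median log2 fold change of -0.080, beside 179 higher and 295 lower and a median of -0.051 over all 474 miRNAs. On the listed-read scale the list split into 4 higher and 7 lower, and into 5 and 6 with TMM factors and 3 and 8 with median-of-ratios factors, when 240, 248 and 235 of all 474 were higher. Whether members of the list share a transcript was not examined, so these splits do not count 11 separate observations. Of the 11, 0 passed over all miRNAs (limma), and 1 had an unadjusted p under 0.05, where 5.06% of all miRNAs did. With TMM or median-of-ratios factors 0 of the 11 had one. The 1 was miR-485-5p, which acts on the synaptic vesicle protein SV2A, at 175 ± 28.1 RPM in 2-VO and 212.3 ± 24.1 RPM in sham libraries, a log2 fold change of -0.29 ± 0.13 with an adjusted p of 0.76 by limma. miR-134-5p, which limits the size of dendritic spines through Limk1, stood at 360.1 ± 43.4 RPM in 2-VO and 383 ± 26.3 RPM in sham libraries (-0.095 ± 0.10, adjusted p = 0.92). miR-138-5p, another regulator of spines, stood at 446 ± 61.5 RPM in 2-VO and 448 ± 37.0 RPM in sham libraries (-0.016 ± 0.11, adjusted p = 0.98).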

How the data were processed

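Libraries were made with a NEBNext small RNA kit from Trizol-isolated RNA, per the labels' protocols. The authors deposited RPM values for 765 miRNAs, per the file headers. Tools named by the submitters' processing notes are bcl2fastq and BWA, with the build rn6; annotation and divisor are not given there. All 4962 deposited RPM values above 0 were whole multiples (within 0.01) of the worth of 1 read, if the smallest value of each library stands for 10 reads, so lower counts are taken to be listed as 0. The divisors and reads given here rest on that reading.

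From these, log2(RPM + 1) was computed for the 474 miRNAs whose mean reached 1 RPM. 2-VO was tested against sham in limma 3.58.1 under R 4.3.3 (mean-variance trend, two-sided, no covariate, Benjamini-Hochberg over all miRNAs or over 132 hairpins, threshold 0.05). Fold changes on this scale understate those of low miRNAs. Single ratios were tested exactly over all 252 assignments, or over 1024 sign changes for pairs, in Python 3.11.15. The fits were tested on simulated data with planted changes larger than any seen here for the members. That says nothing about how well changes of the members' size would be found. The members, lists and rules were chosen with earlier results of these data known. Named beyond the members are the miRNAs next to each in level, the 5 most correlated with miR-132-3p and with miR-212-3p, and 3 of the activity list. That list shares miR-124-3p and miR-138-5p with the neuron markers and miR-219a-5p with the oligodendrocyte markers. Alternatives changed the pseudocount, filter, scaling, test and block, or left out a library.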

Additional observations from a re-analysis of the deposited data

Results flagged for a closer look

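In 2-VO replicate 8, miR-212-3p stood at 154 RPM, while the other 2-VO libraries ran from 91.0 to 104 RPM. The gap to the nearest library was above 0.71 of the range of the 5 libraries. The ratio of miR-212-3p to miR-132-3p was set apart in the same way, at 0.235 in that library and 0.149 to 0.173 in the other 2-VO libraries. Both come from the same miR-212-3p reads. Of 18 groups of 5 values checked, 2 held such a library, where chance alone gives about 0.9.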

How the results depend on the processing

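Of 258 recomputed values, 231 kept their direction and their side of the threshold. The filters and the exact test cannot change a member's estimate, and scaling barely enters a ratio of arms or hairpins. Part of the kept directions was therefore fixed beforehand. Over all miRNAs 0 passed under each setting run but the replicate block, with 8 (1 residual degree of freedom). None of these 8 was a member (miR-212-3p 0.12, adjusted p = 0.997). Only numbers 3 and 5 occur in both groups, and the labels do not say whether they mark pairs. Their deviations correlated at -0.058 and -0.18, which is too few values to decide it. The numbers were not taken as pairs. A number found in 1 group only is fully fitted by its own block term, so the block estimates rest on numbers 3 and 5 alone. On these the log2 difference of the miR-212-3p/miR-132-3p ratio was -0.0049. Neither this value nor the 0.12 of miR-212-3p is an adjusted estimate over all libraries, and 2-VO replicate 8 has no part in them. The log2 fold change of miR-212-5p turned to 0.032 scaled to listed reads, 0.038 with TMM factors and 0.029 with median-of-ratios factors, and these put miR-132-3p at 0.10 to 0.11 and miR-132-5p at 0.069 to 0.078. Its r under these was 0.452, 0.513 and 0.438 with miR-132-3p, and 0.291, 0.310 and 0.231 with miR-132-5p. Leaving out 1 library gave log2 fold changes of -0.0028 to 0.082 for miR-132-3p, -0.0095 to 0.066 for miR-132-5p, -0.052 to 0.011 for miR-212-5p and 0.13 to 0.31 for miR-212-3p, and -0.099 to 0.017 for the ratio of the 5p arms. It gave r of 0.776 to 0.922 between the miR-132 arms, 0.546 to 0.755 for miR-132-5p with miR-212-3p, -0.363 to 0.163 between the miR-212 arms, and -0.436 to -0.136 and -0.418 to -0.047 for miR-212-5p with miR-132-3p and with miR-132-5p. The log2 difference of the miR-132 arm ratio ran from -0.062 to -0.0067 and that of the miR-212 ratio from -0.37 to -0.17. The cause was not tested. The planned edgeR test was not run, since counts under 10 reads are not listed. The members were read at least 1044 times a library, and whether more depth would change a call was not tested.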
